A study of Rattus norvegicus with 12 samples.

Results

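The genes described here are the forkhead factors Foxo1 and Foxo3 and 7 genes known to respond to FOXO factors, namely Sesn1, Sesn3, Irs2, Pik3ip1, Ccng2, Txnip and Cdkn1b, in cultured rat cardiac progenitor cells. They were picked by name, through their Entrez gene identifiers, and are 9 of the 16924 genes in the count files. All 9 passed the filter on low counts that left 10020 genes for testing. The study asked how the surface that these cells are plated on changes their transcripts. Its 12 libraries fall into 4 groups of 3: cells on fibronectin, cells on laminin, cells on dishes with no coating, and cells in suspension. Every library came from the same clone-derived cardiac progenitor line, grown before the experiment in medium with 10% fetal bovine serum, with no genetic change named in the labels. Cells were plated thinly for 2 h in medium with 0.1% serum, and the suspension libraries carry the same protocol text, which leaves the handling of unattached cells unstated. Fibronectin and laminin are matrix proteins that cells bind through integrins.

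FOXO factors bind DNA through a forkhead domain and switch on genes for cell cycle arrest, autophagy, resistance to oxidants and restraint of growth. Insulin and other growth factors act through PI3-kinase to activate the kinases AKT and SGK, which phosphorylate FOXO proteins and send them out of the nucleus. Their activity is therefore set largely at the protein level, which transcript counts do not measure. In heart muscle FOXO1 and FOXO3 are known for control of atrophy, autophagy and the response to oxidative stress.

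Libraries held 15875160 to 20852160 counts. On the first principal component, which carried 56.1% of the variance, suspension libraries lay between -30.8 and -27.8 and attached replicates 1 and 2 between -7.04 and 1.46. Replicate 3 stood apart on each surface, at 20.8 on fibronectin, 35 on laminin and 41.9 without coating, and calls of named genes against suspension or between surfaces that were lost without that batch are given beside them. The mesenchymal transcripts Vim and Col1a1 averaged 5125 and 1164 CPM (the count of a gene scaled by its library's total), but Thy1, a marker from the same list, averaged 0.0842 CPM. The cardiac factor Gata4 averaged 88.4 CPM, and the progenitor markers Kit and Ly6a averaged 3.09 and 0.00481 CPM. Of smooth muscle transcripts, Tagln averaged 196 CPM, Myh11 8.17 CPM and Cnn1 0.140 CPM. Myh7, Nkx2-5 and Hba-a1 had no count in any library. The summed level of 7 cardiomyocyte markers was 4.49 to 6.70 CPM over the attached libraries, against 2.00 to 2.78 CPM in suspension, and that of 4 endothelial markers was 1.67 to 2.40 CPM against 1.16 to 1.39 CPM. Most of the first sum was Tnnt2, at a mean of 4.32 CPM over the 12 libraries, with Tnni3 at 0.445 CPM and the others lower. The largest part of the endothelial sum was Vwf, at a mean of 1.10 CPM. The part of these markers in the results below was not tested. In such bulk libraries a change in the share of cells that express a gene and a change in RNA per cell cannot be told apart.

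Attachment went with higher transcript levels of Irs2, Sesn1 and Txnip on all 3 surfaces, of Ccng2 on fibronectin and laminin, and of Foxo3 on dishes without coating. The log2 fold change of Foxo3 was 0.25 on fibronectin, 0.29 on laminin and 0.35 without coating, so its call does not set uncoated dishes apart. That call was lost in 5 of 6 fits that left out a library. Of the 9 genes, 4 rose on fibronectin against suspension, where 6.61% of all tested genes rose, 4 rose on laminin, where 12.1% rose, and 4 rose without coating, where 8.48% rose (edgeR quasi-likelihood test, Benjamini-Hochberg adjusted p under 0.05 over 10020 genes). None of the 9 fell in these comparisons, where 3.06%, 6.96% and 4.10% of tested genes fell. When the 3 surfaces were averaged and set against suspension, 5 of the 9 rose and 0 fell, where 15.9% of tested genes rose and 10.4% fell. The median log2 fold change of the 9 genes was 0.62 on fibronectin, 0.64 on laminin and 0.33 without coating, beside 0.00, -0.01 and 0.00 over all tested genes. The 9 genes, and the lists described below, were chosen with earlier results of these data known. Their counts and medians beside all tested genes therefore describe the chosen genes and do not test them as a set. Of all calls against suspension 68.3% were higher on fibronectin, 63.4% on laminin, 67.4% without coating and 60.5% for the average; with libraries scaled by their totals alone these shares were 53.9%, 54.8%, 54.3% and 48.6%, and without batch 3 they were 46.5%, 45.4%, 43.1% and 45.2%. The contrasts share the suspension libraries, so they do not repeat each other independently. Replicate numbers are batches shared by the 4 groups, and in a model with batch as a block 5 of the 9 rose and 0 fell on fibronectin (16.6% and 12.1% of tested genes), 6 rose and 2 fell on laminin (22.4% and 20.8%) and 5 rose and 1 fell without coating (20.1% and 18.7%). For the average of the surfaces 6 rose and 1 fell with the block (25.2% and 24.8%).

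**Figure D1:**
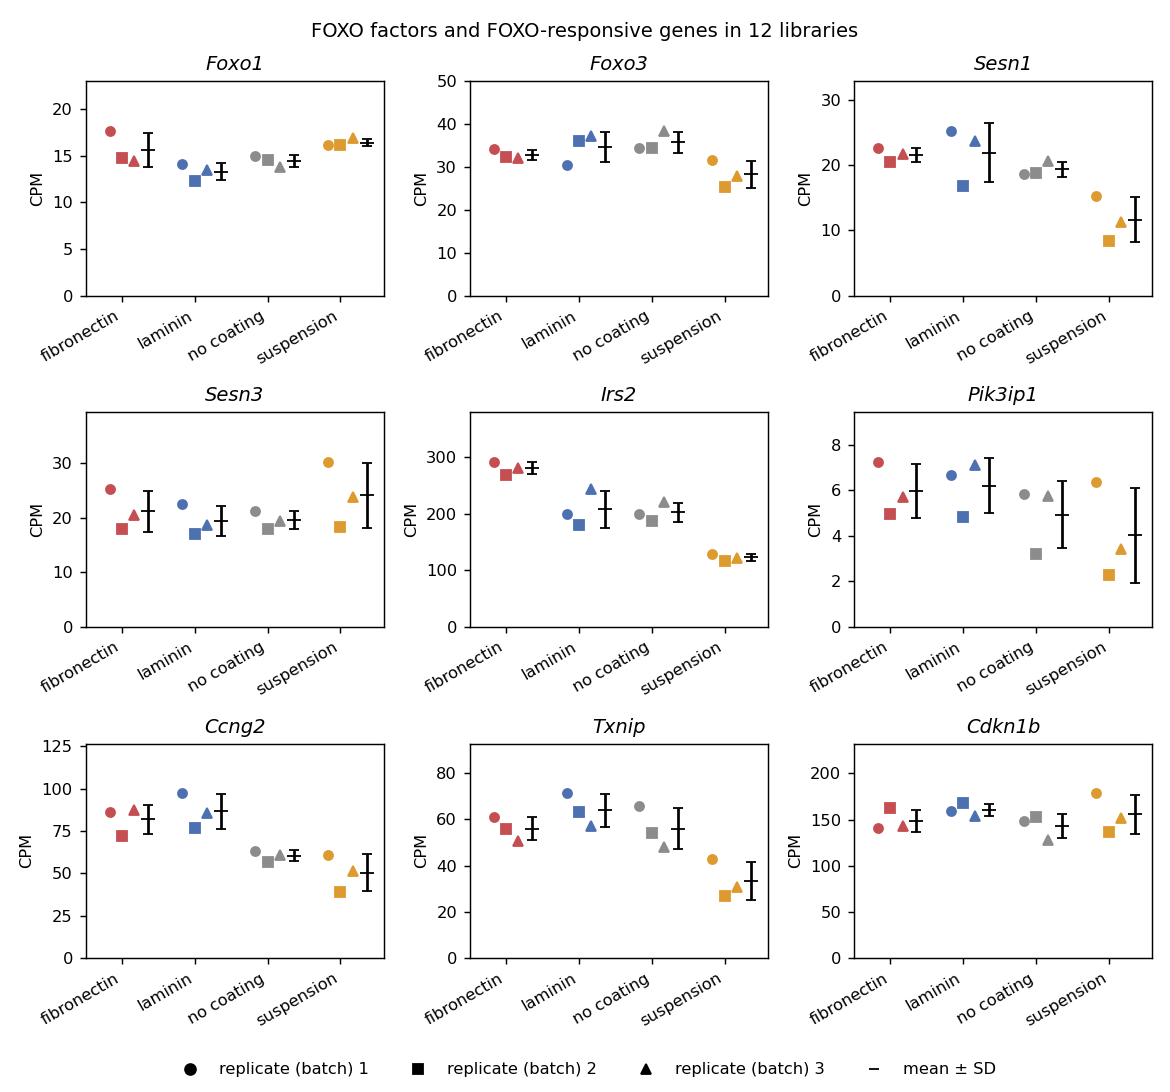
CPM in each of the 12 libraries (points, 1 panel per gene, linear axis from 0) with the mean and SD of each group, for fibronectin, laminin, no coating and suspension from left to right. Irs2 ranges from 269 to 292 CPM on fibronectin and from 117 to 129 CPM in suspension, and Cdkn1b on each surface overlaps with suspension.

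Foxo1 and Foxo3 encode the factors themselves, and of the pair Foxo3 was called higher while Foxo1 was not called without the batch block. Foxo3 had 34.1, 32.3 and 32.0 CPM on fibronectin (replicates 1 to 3, here and below), 30.5, 36.1 and 37.2 CPM on laminin and 34.3, 34.3 and 38.5 CPM without coating, against 31.7, 25.4 and 27.9 CPM in suspension. The fibronectin and uncoated libraries all lay above suspension, whereas laminin replicate 1 lay below suspension replicate 1. The log2 fold change was 0.35 ± 0.09 (SE) without coating (edgeR, adjusted p = 0.0334), 0.29 ± 0.09 on laminin (adjusted p = 0.0524, and 0.0306 with the batch block) and 0.25 ± 0.09 on fibronectin (adjusted p = 0.118). The uncoated call was lost without suspension replicate 2 or 3 (edgeR, adjusted p = 0.124 and 0.116), without uncoated replicate 1, 2 or 3 (0.0530, 0.0673 and 0.105), without batch 3 (0.130), without the filter on low counts (0.0533), in a fit of only the groups compared (0.0883) and with libraries scaled by their totals alone (0.0725). Averaged over surfaces Foxo3 was 0.30 ± 0.08 higher (edgeR, adjusted p = 0.0192). That call did not hold without suspension replicate 2 (0.105), suspension replicate 3 (0.0863) or batch 3 (0.0751).

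Foxo1 had 17.7, 14.7 and 14.4 CPM on fibronectin, 14.1, 12.3 and 13.5 CPM on laminin and 15.0, 14.6 and 13.8 CPM without coating, against 16.2, 16.2 and 16.9 CPM in suspension. Each laminin and uncoated library lay below each suspension library, and the fibronectin libraries overlapped with them. On laminin Foxo1 was at a log2 fold change of -0.30 ± 0.11, which missed the threshold (edgeR, adjusted p = 0.0750) and passed it with the batch block (adjusted p = 0.0270). Its log2 fold changes on fibronectin and without coating were -0.04 (95% interval -0.28 to 0.20) and -0.16 (-0.41 to 0.08). The promoter window of Foxo1 held none of the forkhead-like words described below.

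Irs2 encodes an adaptor that carries signals from the insulin and IGF1 receptors to PI3-kinase, and it is a known FOXO target that feeds back on insulin signalling. It had 292, 269 and 282 CPM on fibronectin, 200, 180 and 244 CPM on laminin and 199, 188 and 220 CPM without coating, against 129, 117 and 122 CPM in suspension. All 9 attached libraries exceeded all 3 suspension libraries, and all 3 fibronectin libraries exceeded every laminin and uncoated library. The mean was 281 ± 11.4 CPM on fibronectin, 208 ± 32.9 CPM on laminin and 203 ± 16.4 CPM without coating, against 122.7 ± 5.83 CPM in suspension (SD, n = 3). Irs2 rose on the log2 scale by 1.23 ± 0.10 on fibronectin (edgeR, adjusted p = 2.73e-05), by 0.76 ± 0.10 on laminin (0.000568) and by 0.74 ± 0.10 without coating (0.000765). These calls held under every alternative tried, each left-out library included. Within batches the log2 difference from suspension was 1.18, 1.20 and 1.20 on fibronectin, 0.64, 0.62 and 0.998 on laminin and 0.63, 0.68 and 0.85 without coating.

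Between surfaces Irs2 stood nearest to a call among the 9 genes. It was 0.47 ± 0.10 lower on laminin than on fibronectin on the log2 scale (log2 fold change -0.47), with an edgeR adjusted p of 0.180, and 0.49 ± 0.10 higher on fibronectin than without coating, with an adjusted p of 0.142. With the batch block both differences passed (edgeR, adjusted p = 0.0319 and 0.0250), as they did with DESeq2 (adjusted p = 0.00565 and 0.00192), and the first also passed without laminin replicate 3 (edgeR, adjusted p = 0.0316). Laminin and uncoated dishes differed in Irs2 by 0.02 on the log2 scale, with a 95% interval of -0.19 to 0.24. In the fit without the block 0 of the 9 genes were called between laminin and fibronectin, where 0.150% of tested genes were called, 0 between fibronectin and no coating, where 0.180% were called, and 0 between laminin and no coating, where no gene was called (156 of 10020 at an unadjusted p under 0.05, and 0 by DESeq2). With the block, Irs2 was the only 1 of the 9 called in each of the contrasts with fibronectin, beside 0.409% and 0.469% of tested genes.

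Sesn1 encodes a sestrin, a stress-induced restraint on the growth kinase complex mTORC1 that answers to both FOXO factors and p53. The 250 bases before its annotated start and the 30 after it, chr20:46948469-46948748 of assembly GRCr8 on the plus strand, are shown because this gene rose on every surface and its window holds 2 forkhead-like words. Capitals mark matches to AAACAA, which lie on the opposite strand and so read TTGTTT, with first bases 168 and 33 before the start. The sequence is from RefSeq.
Sesn1: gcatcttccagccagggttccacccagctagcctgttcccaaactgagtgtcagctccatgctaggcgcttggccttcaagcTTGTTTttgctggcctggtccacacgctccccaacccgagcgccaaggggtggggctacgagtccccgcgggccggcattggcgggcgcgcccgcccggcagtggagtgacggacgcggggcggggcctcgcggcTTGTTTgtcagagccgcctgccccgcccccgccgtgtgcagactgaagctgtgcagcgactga

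Sesn1 had 22.7, 20.5 and 21.6 CPM on fibronectin, 25.3, 16.8 and 23.6 CPM on laminin and 18.6, 18.8 and 20.7 CPM without coating, against 15.2, 8.43 and 11.3 CPM in suspension. No suspension library reached an attached one. Sesn1 rose by 0.93 ± 0.19 on fibronectin (edgeR, adjusted p = 0.0127), by 0.92 ± 0.19 on laminin (0.00971) and by 0.76 ± 0.19 without coating (0.0278), all on the log2 scale. The fibronectin call was lost without suspension replicate 3 (0.0594), without fibronectin replicate 1 (0.0519) and without batch 3 (0.0583). The uncoated call was lost without suspension replicate 2 or 3 (edgeR, adjusted p = 0.0894 and 0.0999), without uncoated replicate 2 or 3 (0.0619 and 0.0760), without batch 3 (0.115) and in a fit of only the groups compared (0.0741).

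Sesn3, a sestrin known as a FOXO target that lowers mTORC1 activity, was not called higher on any surface. It had 25.2, 17.9 and 20.5 CPM on fibronectin, 22.5, 17.0 and 18.7 CPM on laminin and 21.3, 18.0 and 19.4 CPM without coating, against 30.3, 18.2 and 23.8 CPM in suspension. Replicate 1 was highest and replicate 2 lowest in all 4 groups, and within every batch each attached library lay below its suspension partner. The log2 fold changes were -0.14, -0.31 and -0.28, with 95% intervals of -0.56 to 0.27, -0.72 to 0.11 and -0.69 to 0.14, and none passed the test without the block. With the batch block Sesn3 fell on laminin (edgeR, adjusted p = 0.0203) and without coating (0.0359), but not on fibronectin (0.231).

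Pik3ip1 encodes a membrane protein that binds PI3-kinase and inhibits it. Its window, chr14:82428065-82428344 of GRCr8 on the plus strand, is shown for a match to GTAAACA, the forkhead consensus word, which begins at the annotated start and lies on the opposite strand, so that it reads TGTTTAC (capitals, RefSeq sequence).
Pik3ip1: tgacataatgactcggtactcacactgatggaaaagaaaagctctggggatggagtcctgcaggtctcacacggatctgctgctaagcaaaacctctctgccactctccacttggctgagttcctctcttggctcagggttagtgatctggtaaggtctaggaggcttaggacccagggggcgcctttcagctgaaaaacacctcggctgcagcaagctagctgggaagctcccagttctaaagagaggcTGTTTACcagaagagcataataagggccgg

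Pik3ip1 was the most thinly counted of the 9, with 41 to 128 reads a library. It had 7.25, 4.96 and 5.68 CPM on fibronectin, 6.67, 4.84 and 7.11 CPM on laminin and 5.84, 3.21 and 5.74 CPM without coating, against 6.34, 2.27 and 3.42 CPM in suspension. The groups overlapped, because suspension replicate 1 was as high as many attached libraries. The log2 fold change of 0.62 ± 0.34 on fibronectin and 0.64 ± 0.34 on laminin did not pass (edgeR, adjusted p = 0.264 and 0.194), but both passed with the batch block (0.0305 and 0.0180). Within batches the difference on fibronectin was 0.19, 1.12 and 0.73 and on laminin 0.07, 1.08 and 1.05. Without coating the log2 fold change was 0.33 ± 0.34 and passed neither fit.

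Ccng2 encodes cyclin G2, an unconventional cyclin that is abundant in quiescent cells and is linked to cell cycle arrest. Its window, chr14:15097161-15097440 of GRCr8 on the minus strand, is shown because it holds a match to CAAAACA, 57 bases before the start, overlapped by an AAACAA 55 bases before it, and another AAACAA 49 bases before it, all on the gene's own strand (capitals, RefSeq sequence).
Ccng2: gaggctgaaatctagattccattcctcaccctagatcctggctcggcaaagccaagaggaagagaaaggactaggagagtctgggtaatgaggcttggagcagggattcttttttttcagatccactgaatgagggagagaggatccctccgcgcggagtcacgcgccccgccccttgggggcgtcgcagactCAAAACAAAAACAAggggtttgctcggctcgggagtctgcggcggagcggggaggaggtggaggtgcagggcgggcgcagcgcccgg

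Over the 33469 promoters of the same length in the rat table, 3.57% hold GTAAACA on either strand, 5.95% hold CAAAACA and 19.7% hold AAACAA, and every match to one word was counted even where it overlapped another. Promoter sequences were matched for 6 of the 9 genes, Foxo1, Cdkn1b, Sesn3, Ccng2, Pik3ip1 and Sesn1, and the first 3 of these held none of the 3 words in the window. A word match describes the letters and does not show that a factor binds there.

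Ccng2 had 85.9, 72.0 and 87.5 CPM on fibronectin, 97.4, 77.0 and 85.6 CPM on laminin and 63.4, 56.9 and 61.0 CPM without coating, against 61.1, 39.1 and 51.1 CPM in suspension. All coated libraries lay above all suspension and all uncoated libraries, and the uncoated libraries overlapped with suspension replicate 1. Ccng2 rose by 0.74 ± 0.15 on fibronectin (edgeR, adjusted p = 0.0112, and 0.0554 without batch 3) and by 0.79 ± 0.15 on laminin (0.00573) on the log2 scale. Without coating the log2 fold change was 0.28 ± 0.15, which passed only with the block (edgeR, adjusted p = 0.206 without it and 0.0191 with it). Its log2 fold change between fibronectin and no coating was 0.45 ± 0.15 and between laminin and no coating 0.50 ± 0.15, with no overlap of libraries. Neither passed over all genes, from unadjusted p of 0.0103 and 0.00570 in edgeR's test. The edgeR adjusted p for fibronectin against no coating was 0.759, and 0.0557 with the block; for laminin against no coating it was 0.9997, and 0.9999 with the block. The other members' log2 fold changes between surfaces ran from -0.27 (Foxo1, laminin against fibronectin) to 0.31 (Pik3ip1, laminin against no coating).

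Txnip encodes a protein that binds and inhibits thioredoxin and lowers glucose uptake, and it responds to the glucose-sensing factors MondoA and ChREBP as well as to FOXO factors. It had 60.8, 56.0 and 50.8 CPM on fibronectin, 71.4, 63.0 and 57.2 CPM on laminin and 65.7, 53.9 and 48.2 CPM without coating, against 42.8, 26.7 and 30.6 CPM in suspension. Every attached library exceeded every suspension library. Txnip rose by 0.79 ± 0.18 on fibronectin (edgeR, adjusted p = 0.0211), by 0.95 ± 0.18 on laminin (0.00621) and by 0.77 ± 0.18 without coating (0.0197) on the log2 scale. The fibronectin call was lost without suspension replicate 2 or 3 or fibronectin replicate 1 (edgeR, adjusted p = 0.0884, 0.0917 and 0.0786), and the uncoated call without suspension replicate 2 or 3 or uncoated replicate 1 (0.0769, 0.0847 and 0.0517) and in a fit of only the groups compared (0.0747). Without batch 3 all 3 calls held (edgeR, adjusted p = 0.0329, 0.0104 and 0.0263).

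Cdkn1b encodes p27, an inhibitor of cyclin-dependent kinases that is a classic FOXO target and is also controlled through protein degradation. It had 141, 163 and 143 CPM on fibronectin, 160, 168 and 154 CPM on laminin and 148, 153 and 128 CPM without coating, against 179, 136 and 151 CPM in suspension. The attached libraries overlapped with the suspension libraries on every surface. The log2 fold changes were -0.03, 0.05 and -0.10, with 95% intervals of -0.27 to 0.22, -0.19 to 0.29 and -0.34 to 0.14. These intervals leave out a log2 change as large as the smallest called change of Irs2, 0.74.

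**Figure D2:**
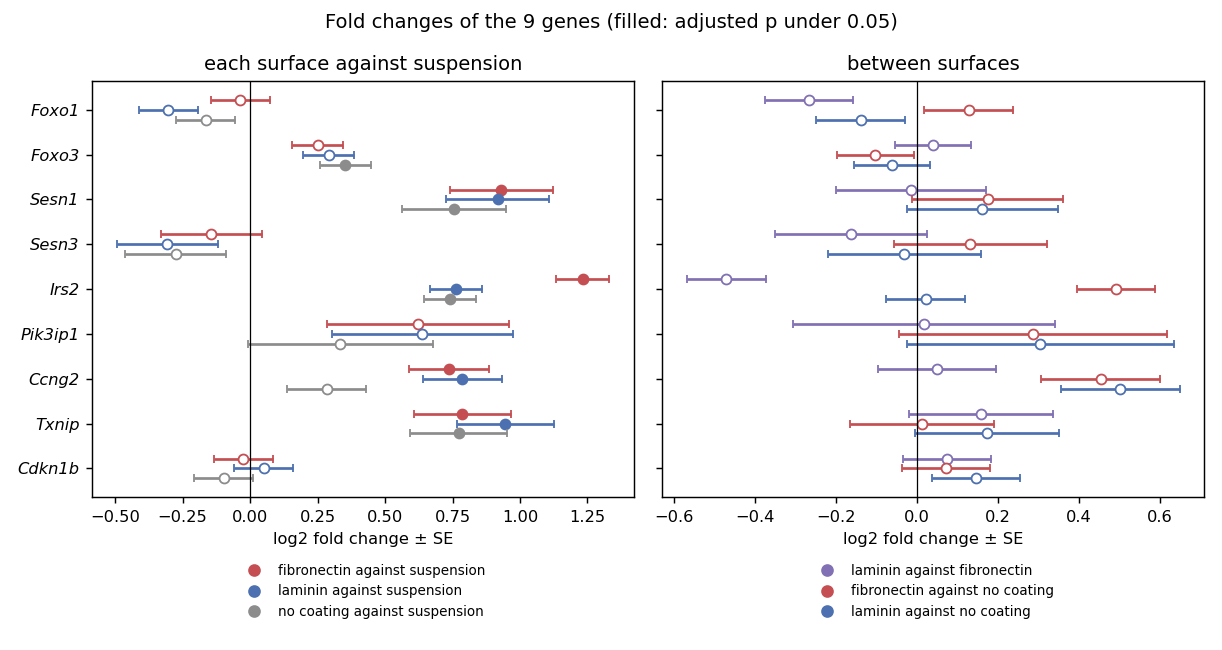
Log2 fold changes of the 9 genes, with bars of 1 SE on each side, against suspension and between surfaces, by comparison. Filled points passed the threshold in the fit without batch, and only contrasts with suspension hold any; Irs2 on fibronectin is the farthest from 0, at 1.23.

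Levels of these genes also varied with batch. In suspension replicate 2 was lowest for 9 of the 9 genes, with Foxo1 nearly level in replicates 1 and 2, and replicate 1 was highest for 8. Replicate 2 was lowest for 5 of 9 on fibronectin, 6 of 9 on laminin and 4 of 9 without coating. For Sesn1, Txnip, Ccng2 and Pik3ip1 the log2 difference from suspension was smallest in batch 1 on each surface. In Sesn1 it was 0.57, 1.28 and 0.93 on fibronectin, 0.73, 0.995 and 1.06 on laminin and 0.29, 1.16 and 0.87 without coating. In Txnip it was 0.51, 1.07 and 0.73 on fibronectin, 0.74, 1.24 and 0.90 on laminin and 0.62, 1.02 and 0.66 without coating. The sign did not change with batch in either gene, and the part of suspension replicate 2 in the size of these differences was not tested beyond leaving it out. Without batch 3 the counts of members called were 2 on fibronectin, 4 on laminin and 2 without coating. They were also 2 on fibronectin without suspension replicate 3 or fibronectin replicate 1. Without coating they were 1 without suspension replicate 2 or 3 and 2 without any 1 of the uncoated replicates.

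**Figure D3:**
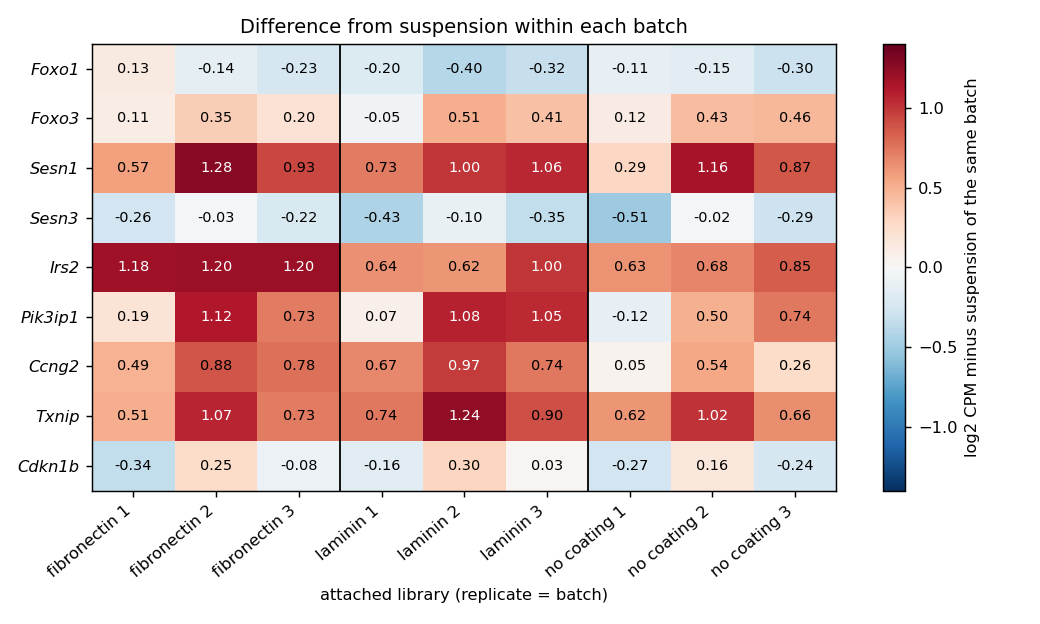
Log2 CPM of each attached library minus that of the suspension library of the same batch, for the 9 genes (down) and the 9 attached libraries (across, by surface and batch). Irs2 is positive throughout, from 0.62 to 1.20, Sesn3 is negative throughout, and Cdkn1b is negative in batch 1 and positive in batch 2 on every surface.

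The upstream pathway was read from a list of 24 genes of PI3-kinase, AKT, SGK and mTOR signalling, of which 21 were in the files and tested. In it 1 gene rose and 2 fell on fibronectin, where 6.61% of all tested genes rose and 3.06% fell. On laminin 1 rose and 4 fell (12.1% and 6.96% of all tested genes), and without coating 1 rose and 2 fell (8.48% and 4.10%). Sgk1, the serum- and glucocorticoid-regulated kinase that phosphorylates FOXO proteins, averaged 236 ± 12.4 CPM on fibronectin, 139 ± 6.33 CPM on laminin and 128 ± 10.9 CPM without coating, against 607 ± 85.1 CPM in suspension (SD, n = 3). It fell by 1.33 ± 0.10 on fibronectin (edgeR, adjusted p = 2.25e-05), fell by 2.13 ± 0.11 on laminin (1.55e-06) and fell by 2.23 ± 0.11 without coating (9.95e-07). Of the genes in these lists it alone was called between surfaces: it fell by 0.79 ± 0.10 on laminin against fibronectin (edgeR, adjusted p = 0.0102) and was 0.90 ± 0.10 higher on fibronectin than without coating (0.00348). The laminin difference was lost in 4 of 6 fits that left out a library, with adjusted p up to 0.0888, and without batch 3 (0.0553).

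Of the other genes around AKT, Pik3cb, a catalytic subunit of PI3-kinase, fell, with log2 fold changes of -0.59 ± 0.16 on fibronectin, -0.85 ± 0.16 on laminin and -0.81 ± 0.16 without coating (edgeR, adjusted p = 0.0389, 0.00553 and 0.00914), and the fibronectin call was lost whichever library was left out. Tsc1, a subunit of the complex that restrains mTORC1, rose by 0.39 ± 0.09, 0.37 ± 0.09 and 0.36 ± 0.09 on the same surfaces (adjusted p = 0.0256, 0.0203 and 0.0302), with calls lost in 3 to 5 of 6 fits that left out a library and the uncoated call also lost in a fit of only the groups compared (0.0790). Phlpp2, a phosphatase of AKT, and Irs1, the sister adaptor of Irs2, fell on laminin, with log2 fold changes of -0.53 ± 0.14 and -0.54 ± 0.17 (edgeR, adjusted p = 0.0257 and 0.0475), and were not called between surfaces. These calls were lost in 5 and 6 of 6 fits that left out a library, and that of Irs1 also without batch 3 (edgeR, adjusted p = 0.0729) and without the filter on low counts (0.0560). Akt1, Akt2, Insr and Igf1r passed on no surface without the block. With the block Akt1 rose on all 3 surfaces, by 0.18, 0.27 and 0.25 on the log2 scale (edgeR, adjusted p = 0.0388, 0.00536 and 0.00984), and in all 2 genes of the list rose on each surface, and 2, 8 and 5 fell, where 16.6%, 22.4% and 20.1% of all tested genes rose and 12.1%, 20.8% and 18.7% fell.

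The list of other FOXO family genes and FOXO regulators had 9 of 12 genes tested, and 0 were called on fibronectin or without coating, while 1 rose and 1 fell on laminin, against the shares of all tested genes given above. On laminin Foxo4, the paralogue of Foxo1 and Foxo3, rose by 0.58 ± 0.16 (edgeR, adjusted p = 0.0271), a call lost in 5 of 6 fits that left out a library and without batch 3 (0.0860). It averaged 56.8 ± 8.64 CPM on fibronectin, 61.7 ± 11.4 CPM on laminin and 53.4 ± 9.06 CPM without coating, against 41.1 ± 2.57 CPM in suspension (SD, n = 3), and each attached library exceeded each suspension library. With the batch block Foxo4 also rose on fibronectin (edgeR, adjusted p = 0.00537) and without coating (0.0121), and the list held 1 rise and 1, 4 and 1 falls on the 3 surfaces. Of all tested genes 16.6%, 22.4% and 20.1% rose with the block and 12.1%, 20.8% and 18.7% fell. Stk3 and Stk4 are Hippo pathway kinases. Stk3 fell on each surface with the block (edgeR, adjusted p = 0.0300, 0.0125 and 0.0133) and was called on no single surface in the fit without it. For the average of the surfaces Stk3 was called lower without the block too, a call lost in 6 of 12 fits that left out a library. Stk4, reported to phosphorylate FOXO proteins, fell by 0.34 ± 0.10 on laminin (edgeR, adjusted p = 0.0378), a call lost in 5 of 6 fits that left out a library, without batch 3 (0.0618) and without the filter on low counts (0.0503). The transcripts of Mdm2, Usp7 and Crebbp, whose products modify FOXO proteins, were not called without the block.

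Of 28 other FOXO-responsive genes, 27 were in the files and 19 were tested. Of these 4 rose and 2 fell on fibronectin (6.61% and 3.06% of all tested genes), 5 rose and 2 fell on laminin (12.1% and 6.96%), and 4 rose and 3 fell without coating (8.48% and 4.10%). With the batch block 8, 9 and 8 rose, where 16.6%, 22.4% and 20.1% of all tested genes rose, and 3, 4 and 4 fell, where 12.1%, 20.8% and 18.7% fell. Their median log2 fold change was 0.01, 0.20 and 0.22, beside 0.00, -0.01 and 0.00 over all tested genes. Those that rose on all 3 surfaces were Gabarapl1, Atg14 and Map1lc3b. Gabarapl1, a ubiquitin-like protein of the autophagosome membrane, averaged 79.9 ± 8.69 CPM on fibronectin, 88.8 ± 7.17 CPM on laminin and 72.4 ± 11.1 CPM without coating, against 42.0 ± 5.997 CPM in suspension (SD, n = 3), and rose by 0.97 ± 0.13, 1.08 ± 0.13 and 0.80 ± 0.13 on the log2 scale (edgeR, adjusted p = 0.00110, 0.000378 and 0.00304). Atg14, a subunit that directs the autophagy PI3-kinase complex, averaged 28.2 ± 1.21, 31.5 ± 1.28 and 25.9 ± 1.68 CPM on the same surfaces, against 16.5 ± 3.56 CPM in suspension, and rose by 0.81 ± 0.12, 0.94 ± 0.12 and 0.67 ± 0.12 (adjusted p = 0.00226, 0.000659 and 0.00647). Map1lc3b, which encodes LC3B, rose by 0.45 ± 0.07, 0.49 ± 0.07 and 0.44 ± 0.07 (adjusted p = 0.00357, 0.00160 and 0.00393). The calls of these 3 genes held without batch 3 and whichever library was left out; the uncoated call of Atg14 was lost in a fit of only the groups compared (edgeR, adjusted p = 0.0561). The list held other autophagy genes that were not called. Bnip3, which encodes a mitophagy receptor, averaged 29.2 ± 3.36 CPM on fibronectin, 30.6 ± 1.45 CPM on laminin and 29.0 ± 1.46 CPM without coating, against 30.6 ± 1.76 CPM in suspension (SD, n = 3). Ulk1, a kinase that starts autophagy, had log2 fold changes of 0.31, 0.33 and 0.39 (edgeR, adjusted p = 0.127, 0.0807 and 0.0595), which passed with the block (0.0128, 0.00739 and 0.00440).

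Other targets went both ways. Bcl2l11, which encodes the death-promoting protein BIM, rose on laminin and without coating by 0.49 ± 0.12 and 0.55 ± 0.12 (edgeR, adjusted p = 0.0197 and 0.0156) and was 0.37 ± 0.12 on fibronectin (adjusted p = 0.0794, and 0.0495 with the block). The calls on laminin and without coating were lost in 4 and 3 of 6 fits that left out a library, that on laminin also without batch 3 (edgeR, adjusted p = 0.0870) and the uncoated one in a fit of only the groups compared (0.0621). Bcl6, a repressor that FOXO factors are known to induce, fell, with log2 fold changes of -0.63 ± 0.12, -0.57 ± 0.12 and -0.50 ± 0.12 on fibronectin, laminin and uncoated dishes (edgeR, adjusted p = 0.00740, 0.00866 and 0.0195), with the uncoated call lost in 4 of 6 fits that left out a library (adjusted p up to 0.0786) and without batch 3 (0.0865). Ccnd1, the G1 cyclin that FOXO factors are known to repress, fell, with log2 fold changes of -0.50 ± 0.11, -0.63 ± 0.11 and -0.58 ± 0.11 on the same surfaces (edgeR, adjusted p = 0.0210, 0.00464 and 0.00867), with the fibronectin call lost in 4 of 6 fits that left out a library. Of the 3 genes of this list that fell without coating, the one besides Bcl6 and Ccnd1 was not among those picked by p and is not named here. Fbxo32, an atrophy ubiquitin ligase, was not picked by p either and was singled out after its values were seen. It was called higher on fibronectin and laminin, on sums of 62 and 63 reads in 3 libraries against 18 in suspension. These are means of 1.11 CPM on either surface against 0.344 CPM, near the floor. Whether the Fbxo32 calls held without batch 3 or in the other alternative fits was not examined. The liver FOXO targets G6pc1 and Pck1 had no count in any library.

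The gene partners of Txnip and Cdkn1b were looked at in the same way. Of 8 genes linked to Txnip 5 were tested, and 1 rose on each surface, Txn1, the thioredoxin that Txnip binds. On laminin 1 also fell. Of all tested genes 6.61%, 12.1% and 8.48% rose and 3.06%, 6.96% and 4.10% fell on fibronectin, on laminin and without coating. With the block 2, 3 and 3 rose and 1, 1 and 0 fell, where 16.6%, 22.4% and 20.1% of all tested genes rose and 12.1%, 20.8% and 18.7% fell. Txn1 rose by 0.33 ± 0.08 on fibronectin, 0.38 ± 0.08 on laminin and 0.35 ± 0.08 without coating (edgeR, adjusted p = 0.0289, 0.0105 and 0.0189), and the calls on fibronectin and without coating were lost with libraries scaled by their totals alone (0.103 and 0.0562) and in 5 and 4 of 6 fits that left out a library (adjusted p up to 0.128 and 0.0770). The fibronectin call of Txn1 was also lost without batch 3 (edgeR, adjusted p = 0.0668), and the uncoated one in a fit of only the groups compared (0.0727). Mlx, the partner of MondoA and ChREBP, fell by 0.35 ± 0.09 on laminin (edgeR, adjusted p = 0.0260, lost in 4 of 6 fits that left out a library), and Slc2a1, the glucose transporter GLUT1, was not called. Among 9 tested CDK inhibitors and G1 partners of Cdkn1b, 0 rose and 1 fell on each surface, which was Ccnd1. Under the block 1, 2 and 2 rose and 2, 2 and 3 fell. The shares of all tested genes given above in this paragraph for each fit apply here too. Without the block Cdk4, Cdk6, Ccne2 and Cdkn1a were not called.

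**Figure D4:**
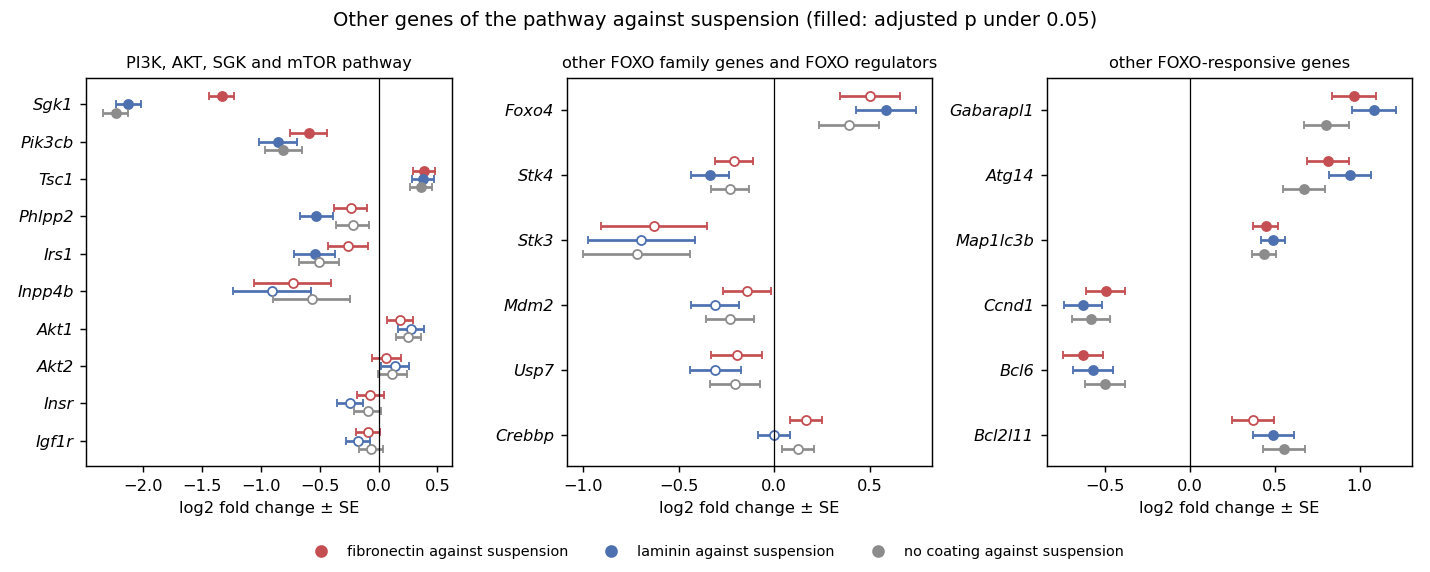
Log2 fold changes against suspension, with bars of 1 SE on each side, of the named genes around the FOXO pathway on fibronectin, laminin and uncoated dishes, grouped by list. Filled points passed the threshold; Sgk1 lies farthest below 0, at -1.33, -2.13 and -2.23, and Gabarapl1 and Atg14 lie above 0 on all surfaces.

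The genes whose levels followed a called member most closely were found by the root mean square difference of centred log2 CPM over the 12 libraries, among 8691 genes. Nearest to Irs2 were Mlycd, a malonyl-CoA decarboxylase, and Gab1, an adaptor of receptor tyrosine kinases, at 0.126 and 0.138. The median difference of all these genes from Irs2 was 0.469. Nearest to Sesn1 were Atg14 and Gli2 at 0.140 each, and Atg14 was also second nearest to Txnip, at 0.153, after Hbp1 at 0.125. Nearest to Ccng2 were Klf11 and Ccdc28a at 0.150 and 0.161, and nearest to Foxo3 were Tmem138 and Homer3 at 0.0653 and 0.0675. The same median was 0.466 for Sesn1, 0.449 for Txnip and 0.395 for Ccng2, but 0.214 for Foxo3, which varied less over the libraries. Distances therefore do not compare directly between members. Gab1 averaged 207 ± 8.76 CPM on fibronectin, 187 ± 17.0 CPM on laminin and 180 ± 11.8 CPM without coating, against 106 ± 11.4 CPM in suspension (SD, n = 3). The points of this measure share libraries and depth, and it describes levels alone.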

How the data were processed

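RNA was measured by sequencing in 12 libraries, prepared with a stranded total RNA kit per the labels' protocols. The authors deposited whole-number counts for each gene, with a file for each library. The build was rn4, as the submitters' processing notes name it. Which aligner, counter, annotation and strand setting they used is not given in the sources here; overlapping antisense genes cannot be told apart. Symbols came from the RefSeq table of GRCr8 (16761 of 16924 identifiers), and the other 163 held 0.301% to 0.357% of a library's counts. CPM was computed from library totals, without TMM. Counts were tested with edgeR 4.0.16 in R 4.3.3 (filterByExpr, TMM factors 0.962 to 1.03, glmQLFit and glmQLFTest, 1 mean per group, 12 libraries, 8 residual degrees of freedom), with p-values adjusted by Benjamini-Hochberg over 10020 genes at 0.05. The script was tested on simulated data. Promoter words were searched in RefSeq sequences of GRCr8, a build other than that of the counts.

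The labels give the batch, which equals the replicate number, and this pairs the samples: deviations from the group mean had a median correlation across genes of 0.409 in the 18 same-batch pairs and -0.124 in the 36 others. Among same-batch pairs it was 0.675 in the 9 of attached libraries (lowest 0.514) and 0.197 in the 9 that include suspension (lowest 0.036). What a batch is (a passage or a day) is not stated, and the cells come from 1 clone. P-values of the fit without the block therefore measure spread between batches of that clone. With the block they measure the spread that is left once differences shared by a whole batch are taken out. Alternatives were DESeq2 1.42.0, the batch block, relative log expression factors, library totals, no filter, the compared groups only, leaving out each library and leaving out batch 3. All 9 members are described. From each list of pathway genes up to 6 with the smallest p in any comparison were picked, but Inpp4b, Txnrd1, Txn2 and Cks1b among them are not described above. Without the block none of these was called on a single surface. Txnrd1 and Cks1b were called higher for the average of the surfaces. Those calls were lost in 5 and 10 of 12 fits that left out a library and without batch 3 (edgeR, adjusted p = 0.0859 and 0.167). Akt1, Akt2, Insr, Igf1r and the targets Bnip3, Ulk1, Fbxo32, G6pc1 and Pck1 were added to the genes picked. The members and lists were chosen with earlier results of these data known.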

Additional observations from a re-analysis of the deposited data

How the results depend on the processing

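The rises of Irs2 on every surface held in all settings tried, and those of Sesn1, Txnip and Ccng2 on laminin did too. Over all settings 780 member fold changes kept their direction and their side of the threshold, 29 lost a call, 19 gained one and 36 changed sign, none of which was called. With 3 libraries per group and as few as 41 reads of Pik3ip1 in a library, small changes of low genes were weakly resolved.

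Genes called with the replicate block were 2872 on fibronectin, 4333 on laminin, 3889 without coating and 5016 for the average against suspension, 41 for laminin against fibronectin and 47 for fibronectin against no coating; members called on laminin became 8, and 1 (Irs2) in each contrast with fibronectin. In contrasts not named here the block moved no count of genes or members called by over 1.5 times. DESeq2 called 45 and 53 genes and 1 member (Irs2) in those contrasts. With only the compared groups fitted, 461 genes and 1 member (Irs2; Txnip, Sesn1 and Foxo3 were lost) were called without coating against suspension, 9 genes for laminin against fibronectin and 11 for fibronectin against no coating. Without batch 3 members called were 2 on fibronectin and 2 without coating against suspension, and 11 genes were called for fibronectin against no coating. The causes of these moves were not tested, except that fewer libraries were fitted.

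Leaving out 1 library gave 412 to 720 genes and 2 to 4 members on fibronectin, 797 to 1439 genes on laminin, 537 to 1285 genes and 1 to 4 members without coating, and 1117 to 2852 genes for the average against suspension, with the lowest gene counts without suspension replicate 3. It gave 7 to 15 genes and 0 to 1 members for laminin against fibronectin and 10 to 14 genes for fibronectin against no coating.

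Sign changes were all of small log2 fold changes. Without batch 3 they were 0.045 for Foxo1 on fibronectin and 0.012 for Cdkn1b averaged, both against suspension, -0.024 for Foxo3 and -0.12 for Pik3ip1 in laminin against fibronectin, -0.026 for Txnip in fibronectin against no coating and -0.046 for Irs2 in laminin against no coating. With library totals they were 0.021 for Sesn1 in laminin against fibronectin and -0.0021 for Txnip in fibronectin against no coating. Leaving out 1 library, the range against suspension was -0.16 to 0.028 for Foxo1, -0.31 to 0.038 for Sesn3 and -0.098 to 0.071 for Cdkn1b on fibronectin, -0.022 to 0.15 for Cdkn1b on laminin, and -0.097 to 0.073 for Cdkn1b and -0.16 to 0.0016 for Slc2a1 averaged. In laminin against fibronectin it was -0.14 to 0.14 for Sesn1, -0.29 to 0.0014 for Sesn3, -0.10 to 0.20 for Pik3ip1 and -0.055 to 0.12 for Ccng2. In fibronectin against no coating it was -0.032 to 0.25 for Sesn3, -0.10 to 0.16 for Txnip and -0.020 to 0.13 for Cdkn1b. In laminin against no coating it was -0.099 to 0.011 for Foxo3, -0.16 to 0.053 for Sesn3 and -0.091 to 0.11 for Irs2.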
